A study of Mus musculus with 6 samples.

Results

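A set of 7 genes that act at the ends of collagen's life outside and inside the fibroblast were followed in lung fibroblasts of mice without the matrix metalloproteinase Mmp19. The products of Bmp1 and Adamts14 trim procollagen, and those of Pcolce and Pcolce2 speed the cut made by Bmp1. The products of Fap, Mrc2 and Ctsk act in the breakdown or uptake of collagen. These genes and the related lists below were chosen by name, with earlier results of these data known. The probes were found through the RefSeq accession of each array spot. All 7 genes had at least 1 probe, 11 probes in all of 55681 on the array, and 9 of those probes were tested. All 7 were well above background, the scanner software's flag for a measured spot, on all 6 arrays with their brightest probe, so none entered the test through 1 group alone.

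The Mmp19 knockout group held 3 arrays and the wild-type group 3, each of cultured lung fibroblasts from mice labelled as female and 11 weeks old. Both groups came from animals given 0.08 units of bleomycin through the trachea, a treatment that leads to lung scarring. Lung fibroblasts were isolated on day 21, grown in FBM medium and incubated for 72 hours, so no culture without bleomycin stands beside these. The strain, the deleted part of Mmp19 and whether animals were pooled are not given in the sources used here. The series text speaks of independent experiments, and the only comparison is knockout against wild type.

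Fibril-forming collagens leave the cell as procollagens with a propeptide at each end. Bmp1 and its relatives cut off the C-terminal propeptide, helped by Pcolce and Pcolce2, which bind procollagen and speed that cut, and Adamts2, Adamts3 and Adamts14 remove the N-terminal propeptide. Once both are gone the molecules assemble into fibrils. On the way out, Fap cuts unfolded collagen at the cell surface, Mrc2 carries collagen fragments into the cell, and Ctsk degrades collagen in lysosomes.

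The share of measured spots was 43.1% to 52.5% per knockout array and 44.6% to 54.5% per wild-type array. Signals are given as log2 of the processed intensity minus the 75th percentile of the same array, so that 0 is the 75th percentile of an array. They do not rank genes against each other, because probes differ in brightness. Precision is set by the 3 arrays per group. Mmp19 was well above background on 0 knockout arrays and on 3 wild-type arrays. The knockout level was lower by at least 5.33-fold in the processed signals (limma adjusted p = 0.016). With normexp background correction the log2 change of Mmp19 was -1.41 and did not pass (0.0742). Against the label of female sex, Xist was well above background on 3 knockout arrays and 0 wild-type arrays, and the Y-linked Ddx3y and Eif2s3y on all 6, so sex or animal origin and genotype cannot be told apart in any value below. Ddx3y and Eif2s3y lay lower on every knockout array than on any wild-type array. Their log2 changes were -2.47 and -3.21 (limma adjusted p = 0.139 and 0.112). Wild-type replicate 2 correlated with the other wild-type arrays at 0.939 and 0.960, while those correlated with each other at 0.984. The 2 arrays of a replicate number, 1 per genotype, shared a slide, which makes slide a batch that can be compared within.

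The 12 fibroblast markers were all tested, and 10 were well above background on all 6 arrays. Of the 12, 3 rose (Dpt, Col1a1 and Col1a2), beside 3.3% of all genes, 10 had a change above 0, and Dcn and Vim had changes of -0.75 and -0.11. The summed signal of the 12 was between 1809 and 1848 times the 75th percentile on the knockout arrays and between 954 and 1496 times on the wild-type arrays. Mesothelial markers also moved with genotype: 6 of 9 tested rose, beside 3.3% of all genes, and 8 had a change above 0. The summed signal of the 9 was between 48.5 and 141 times the 75th percentile in the knockout, against 2.75 to 19.0 times in wild type. Only 4 of the 9 were well above background on all 6 arrays. Of those that rose, Bnc1, Lrrn4 and Upk3b were so on 1, 2 and 2 wild-type arrays, and they entered the test through the knockout group alone. Of 6 macrophage markers tested none passed (2 at an unadjusted p under 0.05), with sums of 48.3 to 110.4 in the knockout and 58.8 to 71.4 in wild type, and Mrc1 was at background on every array. Of 7 lung epithelial markers none passed (1 unadjusted, Krt18, a keratin of simple epithelia, whose log2 change of 2.55 passed in the slide-blocked fit with an adjusted p of 0.0468), with sums of 54.8 to 60.7 and 39.2 to 47.3 and with Epcam and Nkx2-1 at background. Bright probes weigh most in such sums. The median log2 change of these 7 markers was -0.03, and 1 of them had a change above 0. Of 4 endothelial markers none passed (0 unadjusted), with sums of 3.29 to 4.64 and 3.56 to 5.08 and with Tek, Tie1, Erg and Emcn at background. In cultures such as these, more cells of a type and more RNA per cell cannot be told apart, and the part of mesothelial cells in the results below was not tested.

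The collagen receptor Mrc2 rose in the knockout, and it was the 1 gene of the 7 that passed the test. The adjusted threshold of 0.05 was passed by 4.8% of the 12470 genes tested, and by 3.3% in the upward direction. Fap, Pcolce and Bmp1 lay higher on every knockout array than on any wild-type array but did not pass, and Pcolce2, Adamts14 and Ctsk overlapped between the groups. Complete separation upward, seen in 4 of the 7 genes, was found in 21.2% of all genes. The median log2 change was 0.67 over the 7 genes and 0.08 over all genes tested.

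**Figure D1:**
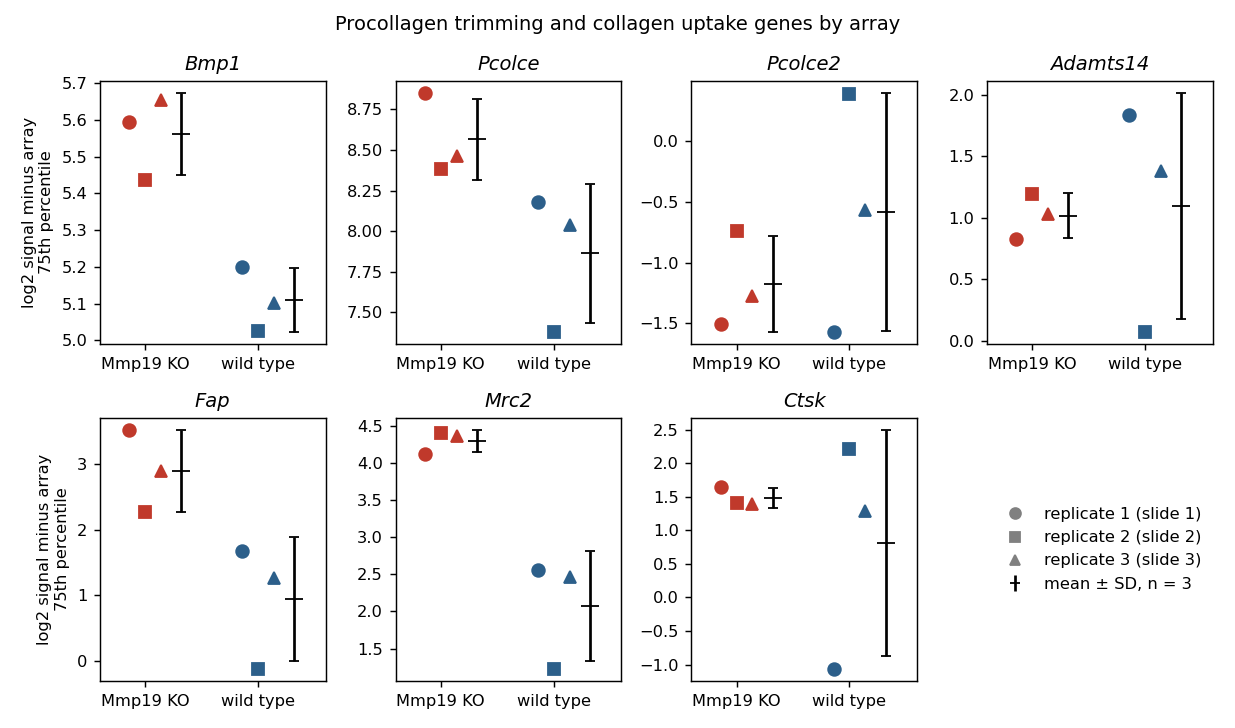
Signal of each gene's brightest probe on each array, as log2 signal minus the array's 75th percentile (each panel has its own axis, which does not start at 0); Mmp19 knockout arrays are red and wild-type arrays blue, marker shapes give the replicate and slide, and bars are the mean ± SD of 3 arrays. Bmp1, Pcolce, Fap and Mrc2 separate the groups, and wild-type replicate 2 is the lowest array in 5 panels and the highest in Pcolce2 and Ctsk.

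Mrc2, a large endocytic receptor of the mannose receptor family, was read by 2 probes. On the brighter one the log2 signal was 4.13, 4.40 and 4.37 on the knockout arrays, against 2.56, 1.22 and 2.46 on the wild-type arrays. The knockout arrays lay close together, and the lowest of them was above the highest wild-type array. Mrc2 averaged 4.30 ± 0.15 in the knockout and 2.08 ± 0.74 in wild type (SD, n = 3 each), a log2 change of 2.22 ± 0.38 (SE; limma adjusted p = 0.0278), which is 4.66-fold with a 95% interval of 2.51 to 8.66. The difference was 1.57, 3.18 and 1.91 within slides 1, 2 and 3. The dimmer Mrc2 probe, well above background on 2 arrays of each group and so not tested, was higher by 1.33 on average.

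The call for Mrc2 did not hold in every fit. Its adjusted p was 0.0750 in the slide-blocked fit, and 1 gene of the 7, Fap, passed in that fit, against 1.17% of all genes upward. Without 1 knockout array it was 0.0644 (replicate 1 left out), 0.0757 (replicate 2) and 0.134 (replicate 3), and without 1 wild-type array it was 0.0509 (replicate 1), 0.0103 (replicate 2) and 0.0884 (replicate 3). Testing every probe without the filter on dim ones gave 0.110. The log2 change itself ran from 1.79 to 2.46 over all 18 alternatives. For 1 of these, the mean over all tested probes of a gene, no test was run, and the main adjusted p was carried over.

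Fap, a serine protease of the cell surface typical of activated fibroblasts, had log2 signals of 3.53, 2.27 and 2.89 on the knockout arrays, against 1.68, -0.12 and 1.27 on the wild-type arrays. All knockout arrays were above all wild-type arrays, and each group was widely spread. Its log2 change was 1.95 ± 0.53 (SE, n = 3 per group), a fold of 3.87 with a 95% interval of 1.62 to 9.24, and the adjusted p from limma was 0.0928. The adjusted p was 0.0490 in the slide-blocked fit and 0.0102 with array weights, a fit in which 21.7% of all genes passed and 11.8% did so upward. The difference was 1.84, 2.39 and 1.62 within the 3 slides. Without wild-type replicate 2, the array with the lowest Fap signal, the change was 1.42 (adjusted p = 0.0878).

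Ctsk, a lysosomal cysteine protease best known as the collagenase of osteoclasts, had log2 signals of 1.65, 1.40 and 1.39 on the knockout arrays, against -1.06, 2.20 and 1.29 on the wild-type arrays. The 3 knockout values lay within the range of the wild-type values. The change of 0.67 ± 0.77 (SE, n = 3 per group; limma adjusted p = 0.656) had a 95% interval of -1.14 to 2.48. It depended on single arrays: leaving out wild-type replicate 1 gave -0.27, and leaving out wild-type replicate 2 gave 1.37. Within slides the difference was 2.71, -0.80 and 0.10. Of 8 osteoclast markers 3, Calcr, Dcstamp and Atp6v0d2, were at background on every array, and the summed signal of the 5 tested was between 8.64 and 11.2 in the knockout and between 4.08 and 4.76 in wild type. Acp5 alone rose among those 5, Nfatc1 fell, Ocstamp, Oscar and Tnfrsf11a did not pass, and their median change was -0.01.

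Among the trimming enzymes, Bmp1, the C-proteinase, had log2 signals of 5.59, 5.44 and 5.65 on the knockout arrays, against 5.20, 5.03 and 5.10 on the wild-type arrays. The groups did not overlap, but the difference was small. Its log2 change was 0.45 ± 0.19 (SE, n = 3 per group; limma adjusted p = 0.228), a fold of 1.37 with a 95% interval of 1.01 to 1.86. Bmp1 passed in 1 of 18 alternatives, the fit with array weights that 21.7% of all genes passed (adjusted p = 0.0436). The 2 dimmer Bmp1 probes changed by 0.24 ± 0.36 and 0.05 ± 0.22 (SE), with overlapping groups (adjusted p = 0.746 and 0.913). The probe with 0.24 carries the accession of a non-coding Bmp1 transcript, and the other 2 share 1 accession.

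Pcolce, the procollagen C-proteinase enhancer, had log2 signals of 8.85, 8.38 and 8.46 on the knockout arrays, against 8.18, 7.38 and 8.04 on the wild-type arrays. Its log2 change was 0.70 ± 0.28 (SE, n = 3 per group; limma adjusted p = 0.215), a fold of 1.62 with a 95% interval of 1.02 to 2.58. The groups did not overlap, and the difference within slides was 0.67, 1.01 and 0.42. Pcolce and Fap put the 6 arrays in the same order, from knockout replicate 1 down through knockout replicates 3 and 2 and wild-type replicates 1 and 3 to wild-type replicate 2. The share of all genes with this order was not counted, so the match is no result about the 2 genes.

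Pcolce2, its relative, lay lower on the knockout arrays on average. Its log2 signals were -1.51, -0.74 and -1.28 on the knockout arrays, against -1.58, 0.39 and -0.57 on the wild-type arrays, so the groups overlapped. The change was -0.59 ± 0.50 (SE, n = 3 per group; limma adjusted p = 0.537), with a 95% interval of -1.77 to 0.59. Leaving out wild-type replicate 2 gave -0.10, and leaving out wild-type replicate 1 gave -1.09. The log2 ratio of Pcolce to Pcolce2 changed by 1.29 between the groups, and its values overlapped.

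Adamts14, an N-proteinase, had log2 signals of 0.83, 1.19 and 1.03 on the knockout arrays, against 1.84, 0.07 and 1.38 on the wild-type arrays. All 3 knockout values lay inside the wild-type range. The change was -0.08 ± 0.45 (SE, n = 3 per group; limma adjusted p = 0.941), with a 95% interval of -1.14 to 0.98, and its sign differed between slides (-1.01, 1.12 and -0.34). A second, dimmer Adamts14 probe was at background on all 6 arrays. For single genes an exact two-sided permutation test of 3 arrays against 3 cannot go below p = 0.1, the value it gave for Bmp1, Pcolce, Fap and Mrc2; for Pcolce2, Adamts14 and Ctsk it gave 0.5, 0.9 and 0.7.

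**Figure D2:**
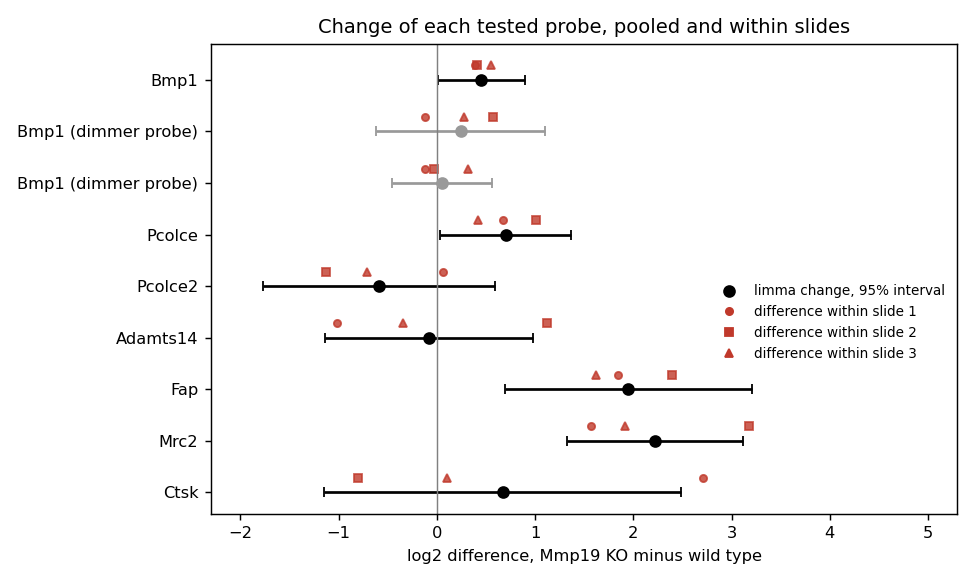
Log2 difference, Mmp19 knockout minus wild type, of the 9 tested probes: circles with bars are the limma change with its 95% interval (grey for dimmer probes of Bmp1), and red markers are the differences within slides 1, 2 and 3. The differences within slides are above 0 on all 3 slides for the brightest probes of Bmp1, Pcolce, Fap and Mrc2. That sign follows from the complete separation of the groups for these genes. The differences lie on both sides of 0 for Pcolce2, Adamts14 and Ctsk.

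Wild-type replicate 2 set much of the spread, and wild-type replicate 1, the lowest array for Pcolce2 and Ctsk, set part of it. The spread was wider in wild type than in the knockout for 6 of the 7 genes. Replicate 2 held the lowest signal of 5 of the 7 and the highest of the other 2, Pcolce2 and Ctsk. The same array had a log2 signal of 2.74 for decorin, Dcn, a fibroblast proteoglycan, against 8.50 and 7.85 on the other wild-type arrays, while the knockout arrays lay at 5.62, 5.51 and 5.72. Other fibroblast markers went both ways on this array. Dpt, Lum and Pdgfra were also lowest there among the wild-type arrays. Col1a2, Col3a1, Fn1, Pdgfrb, Tcf21, Thy1 and Vim were highest there, and Col1a1 lay between. Without this array Mrc2 remained past the threshold with a change of 1.79, and the changes of Pcolce and Bmp1 were 0.46 and 0.41 (adjusted p = 0.274 and 0.250). The part that this array's differences had in the results was not tested.

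The trimming enzymes act on procollagen, and several of its chains rose. Of 11 fibril-forming procollagen chains 6 were tested, all well above background on all 6 arrays. Col11a1, Col1a1 and Col1a2 rose, with log2 changes of 1.93 ± 0.27, 1.47 ± 0.26 and 1.25 ± 0.25 (SE, n = 3 per group; limma adjusted p = 0.0172, 0.0307 and 0.0415), although none of them passed with slide as a block. Over the 18 alternatives, Col11a1 passed in 14, Col1a1 in 12 and Col1a2 in 6. The other 3 also had positive changes, among them Col3a1 at 3.32 ± 0.76 (adjusted p = 0.0621), whose wild-type arrays spread widely. The median change over these 6 chains was 1.37, beside 0.67 for the 7 genes and 0.08 for all genes. The share of all genes past the threshold upward was 3.3%.

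The message of each gene was also set against that of type I procollagen, the mean log2 signal of Col1a1 and Col1a2, on the same array. That ratio does not depend on how arrays are scaled, and it is given here minus its wild-type mean, since its absolute level carries no meaning. Because both chains rose, by 1.36 on average, the ratio fell for most genes: its median difference was -1.28 over 12436 genes with a value on every array, and 72.7% of them had all knockout arrays below all wild-type arrays. Downward separation in 2 of the 7 genes is therefore no result about them. For Bmp1 the ratio was -1.09, -0.77 and -0.87 on the knockout arrays, against 0.33, -0.25 and -0.08 on the wild-type arrays, without overlap. For Pcolce2 it was -2.50, -1.25 and -2.11 on the knockout arrays and -0.76, 0.81 and -0.06 on the wild-type arrays, also without overlap. The mean difference was -0.91 for Bmp1, a smaller fall than that of 75.5% of genes, and -1.95 for Pcolce2, where 11.5% of genes lay lower. The ratios of Pcolce, Adamts14 and Ctsk differed by -0.66, -1.44 and -0.69 and those of Mrc2 and Fap by 0.86 and 0.59, with overlapping groups (exact permutation p between 0.2 and 0.5). 

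**Figure D3:**
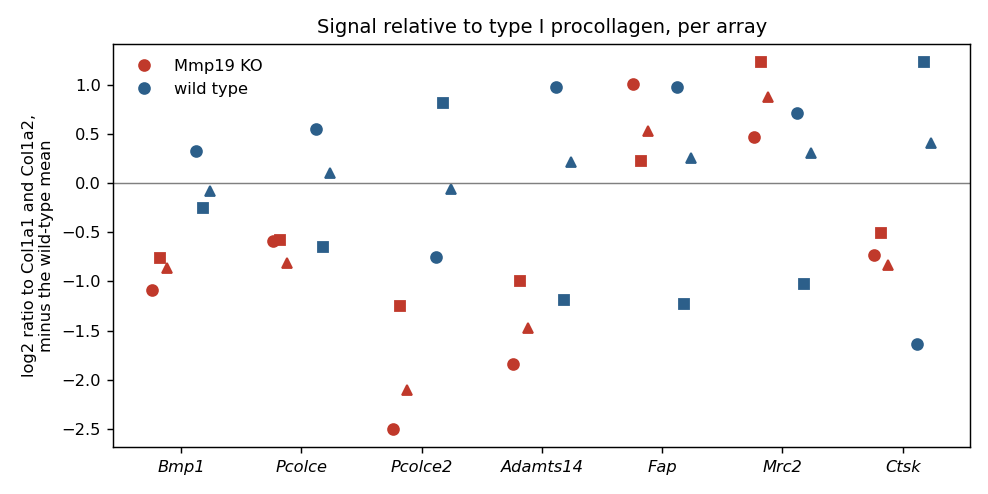
Log2 ratio of each gene's signal to the mean of Col1a1 and Col1a2 on the same array, minus the wild-type mean of that ratio; Mmp19 knockout arrays are red, wild-type arrays blue, and circles, squares and triangles are replicates 1, 2 and 3. All knockout arrays lie below all wild-type arrays for Bmp1 and Pcolce2, and the groups overlap for the other 5; downward separation on this ratio was found in 72.7% of all genes.

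Of 7 other procollagen proteinases and enhancers, 3 were tested, and Adamts3, Tll2 and Mep1b were at background on every array. Adamts2, the main N-proteinase of type I procollagen, rose, with a log2 change of 1.44 ± 0.20 (SE, n = 3 per group; limma adjusted p = 0.0176). Its log2 signals were 5.76, 5.57 and 5.45 on the knockout arrays, against 4.04, 4.10 and 4.33 on the wild-type arrays, without overlap. In the slide-blocked fit the adjusted p of Adamts2 was 0.0670. Mep1a, a meprin subunit, was at background on all knockout arrays but measured on all wild-type arrays. It was lower by at least 3.38-fold in the knockout in the processed signals (limma adjusted p = 0.0172). With normexp background correction its log2 change was -0.85 and did not pass (0.174). Tll1, a close relative of Bmp1, changed by -0.28 ± 0.67 (adjusted p = 0.850). The ratio of Adamts2 to Adamts14 was higher on every knockout array than on any wild-type array, by 1.52 log2 units on average; this pair was compared after its values were seen.

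The upstream sequences of these related pairs, Pcolce with Pcolce2 and Adamts2 with Adamts14, are shown because the estimated changes within each pair were unlike (0.70 and -0.59, and 1.44 and -0.08), a difference that was not tested. They are the 250 bases before the RefSeq transcript start (GRCm38.p6), 5′ to 3′ on the gene's strand, with each GC box (GGGCGG on either strand, overlaps included) in capitals. The promoter table held 4 of the 7 genes.
Pcolce (chr5:137611405-137611654, minus strand): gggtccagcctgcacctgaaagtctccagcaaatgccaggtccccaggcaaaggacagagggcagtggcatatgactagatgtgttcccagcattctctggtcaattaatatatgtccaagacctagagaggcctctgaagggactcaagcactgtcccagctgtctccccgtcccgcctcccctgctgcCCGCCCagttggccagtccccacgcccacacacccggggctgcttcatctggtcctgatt
Pcolce2 (chr9:95637378-95637627, plus strand): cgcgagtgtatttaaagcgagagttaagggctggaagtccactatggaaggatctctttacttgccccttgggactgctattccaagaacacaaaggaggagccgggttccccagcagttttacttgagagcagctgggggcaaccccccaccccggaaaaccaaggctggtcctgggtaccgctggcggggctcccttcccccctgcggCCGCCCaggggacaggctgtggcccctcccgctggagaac
Adamts2 (chr11:50601835-50602084, plus strand): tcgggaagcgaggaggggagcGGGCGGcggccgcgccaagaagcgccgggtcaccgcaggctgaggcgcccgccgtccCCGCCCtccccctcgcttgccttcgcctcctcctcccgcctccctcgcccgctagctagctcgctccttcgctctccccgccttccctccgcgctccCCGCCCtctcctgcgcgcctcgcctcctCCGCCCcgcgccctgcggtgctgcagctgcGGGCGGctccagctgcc
Adamts14 (chr10:61273420-61273669, minus strand): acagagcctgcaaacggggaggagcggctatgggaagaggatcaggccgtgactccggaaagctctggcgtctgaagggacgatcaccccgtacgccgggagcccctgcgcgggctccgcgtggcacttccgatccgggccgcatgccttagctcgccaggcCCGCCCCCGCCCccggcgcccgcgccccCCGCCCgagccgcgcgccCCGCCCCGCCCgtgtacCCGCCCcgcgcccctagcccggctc

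The Pcolce and Pcolce2 windows each held 1 GC box, with a GC content of 58.8% and 61.2%. The Adamts2 and Adamts14 windows held 5 and 6, with 78.0% and 76.4%. Of 32851 promoter windows of this length in the table, 32.7% held a GC box, and the median GC content was 52.4%. None of the 4 windows held CCAAT or TATAAA on either strand, which 33.9% and 12.4% of all windows did. The members of each pair had like counts of GC boxes, and these matches are a description of the letters only.

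Bmp1 also activates or cuts other proteins outside the cell, many of them of the matrix. Of 17 such substrates 13 were tested, with a median change of 0.80. Of these 4 rose, beside 3.3% of all genes. They were the collagen-binding proteoglycans Ogn (3.84 ± 0.31) and Fmod (3.32 ± 0.22) and the collagen crosslinking oxidases Lox (2.45 ± 0.45) and Loxl1 (1.81 ± 0.37; all log2, SE, n = 3 per group; limma adjusted p = 0.00356, 0.00264, 0.0353 and 0.0450). Fmod was well above background on 1 wild-type array only, and with normexp background correction its change was 1.92. Ogn and Fmod passed in all their alternatives, and Lox and Loxl1 lost their calls with slide as a block.

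Among 16 relatives of Mrc2 and partners in collagen uptake 12 were tested, with a median change of 0.64. Of these 3 rose, beside 3.3% of all genes. They were the collagen-binding integrin chain Itga11, the urokinase Plau and the membrane collagenase Mmp14, with log2 changes of 4.34 ± 0.39, 2.36 ± 0.32 and 1.62 ± 0.27 (SE, n = 3 per group; limma adjusted p = 0.00439, 0.016 and 0.0266). Plau was well above background on 2 wild-type arrays, its change was 1.30 with normexp, and its adjusted p in the slide-blocked fit was 0.0692. Mrc1, Ly75 and Itga2 were at background on every array. The relative Pla2r1 and the urokinase receptor Plaur, which binds beside Mrc2, changed by 0.42 ± 0.29 and 0.06 ± 0.37 and did not pass (adjusted p = 0.450 and 0.943).

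Of 12 other lysosomal cathepsins and peptidases 11 were tested, all well above background on all 6 arrays, with a median change of 0.94. Of these 4 rose, beside 3.3% of all genes. Ctsf, Ctsz, Ctsc and Ctsb rose, with log2 changes of 1.45 ± 0.20, 1.18 ± 0.23, 1.04 ± 0.21 and 0.99 ± 0.19 (SE, n = 3 per group; limma adjusted p = 0.0170, 0.0400, 0.0458 and 0.0403). All 4 lost their calls with slide as a block (0.0519 to 0.0940). The cystatin Cst6, an inhibitor of cysteine proteases, fell by 1.84 on the log2 scale, with a standard error of 0.39 (adjusted p = 0.0496), and was the 1 gene of 5 tested inhibitors to pass. Of all genes 1.49% passed downward. Cst6 passed in 5 of 18 alternatives, among them the mean over a gene's probes, which carries the main adjusted p.

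Fap is a peptidase that cuts after proline, and 8 genes listed as its relatives were tested, not all of them known as active peptidases. Their median change was -0.20, and 1 rose, beside 3.3% of all genes. Dpp4, the closest relative of Fap, was well above background on 3 knockout arrays and 0 wild-type arrays. Its knockout level was higher by at least 5.31-fold in the processed signals (limma adjusted p = 0.0114). With normexp background correction the log2 change of Dpp4 was 1.05 and did not pass (0.0564).

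**Figure D4:**
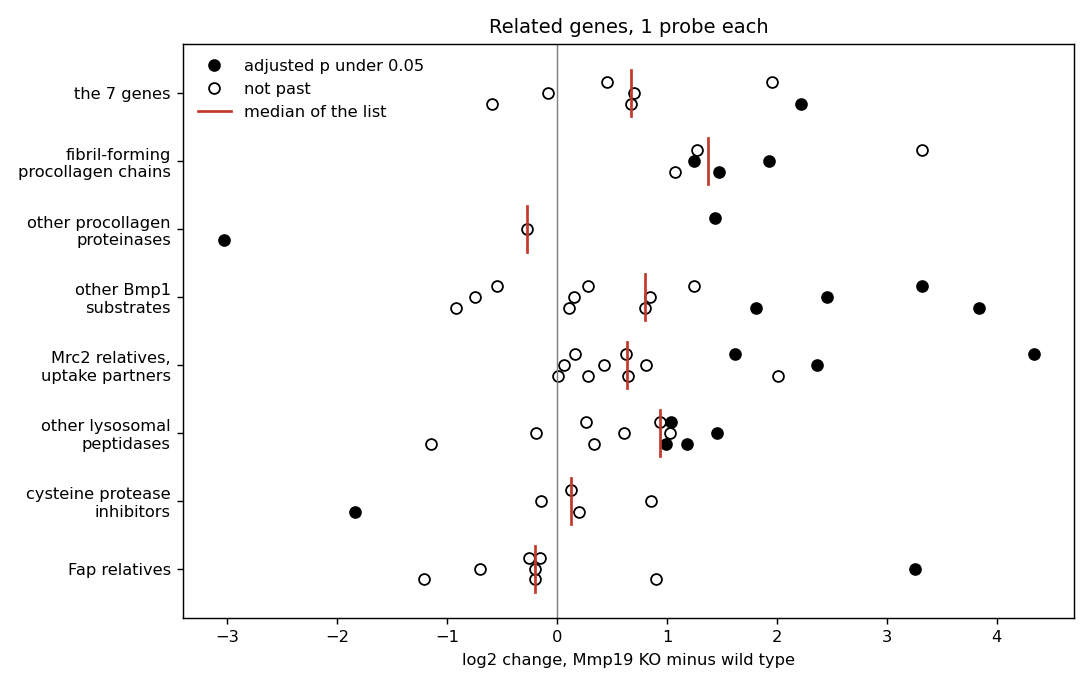
Log2 change, Mmp19 knockout minus wild type, of the 7 genes and of the tested genes of 7 related lists (1 probe per gene); filled circles passed the adjusted threshold of 0.05, open circles did not, and red lines are list medians. The medians run from -0.28 for the other procollagen proteinases to 1.37 for the procollagen chains; the outlying points of Mep1a and Dpp4 are fitted values of genes at background in 1 group.

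For each gene the most similar pattern over the 6 arrays was sought among 10986 named genes well above background on all of them. The gene most like Mrc2 was Creld1 (Pearson r = 0.999, n = 6 arrays), followed by Msrb2 and Gzf1. Thoc1 was most like Fap (0.999), Naca most like Pcolce (0.998) and Atp13a3 most like Bmp1 (0.995). Mfsd6, Ankzf1 and Chmp3 were most like Pcolce2, Adamts14 and Ctsk (0.998, 0.999 and 0.998). Such values are common with 6 arrays in 2 groups: between 0.746% and 3.43% of the genes compared lay above 0.95 for a given gene, so these names describe the arrays only.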

How the data were processed

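Total RNA (0.5 µg per sample) was labelled with Cy3 and hybridised to 1-colour Agilent arrays, per the labels' protocols. The deposited scanner tables hold spot intensities made with Agilent Feature Extraction 10.7.3.1, per the file headers; the submitters' processing notes name version 9.1. A second deposited table holds log2 values of 35844 probes (column medians 5.51 to 5.76); it matched the processed signals of their own arrays at 0.996 or more; its centring is unknown, and it served as an alternative.

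Control and outlier-flagged spots were left out and repeated spots averaged, which gave 55681 probes, of which 47.4% were named by RefSeq accession (GRCm38.p6). Each array's 75th percentile of log2 processed intensity was subtracted. A probe was tested (24214 were) if 1 group or both had it well above background on every array. The two-sided test was limma 3.58.1 (lmFit, eBayes; R 4.3.3), p-values were adjusted by Benjamini and Hochberg's method across the tested probes, and the threshold was 0.05; the fit was tested on simulated data. Where a gene had several tested probes, the brightest on average stood for it. No spot was saturated. A fold "at least" sets the bright group's mean against the dim group's, where each dim array enters with its own signal or, if higher, its lowest signal well above background. Such a bound holds for the processed signals only. With normexp background correction the changes of Mmp19, Mep1a and Dpp4 were smaller than their bounds. The replicates are described as independent experiments; p-values measure the spread between these arrays.

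Replicate number equals slide. After subtracting group means, the 2 arrays of each slide correlated across probes at 0.096, -0.021 and 0.210, so arrays were not treated as pairs. Such a correlation cannot show that single genes are free of a slide effect, and the calls of Mrc2 and Fap changed with the slide block. The genes and lists were chosen with earlier results of these data known. Besides these genes and Mmp19, the text names by rule up to 4 called genes per list (those of largest change; 2 of smallest p where none was called) and the 3 genes most like each of the 7 over the arrays, of which it gives the first and, for Mrc2, all. Col3a1, Tll1, Pla2r1, Plaur, Dcn, Krt18, Acp5, Nfatc1, Ocstamp, Oscar and Tnfrsf11a were added after their values were seen. The same holds for Dpt, Lum, Pdgfra, Pdgfrb, Fn1, Tcf21, Thy1 and Vim.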

Additional observations from a re-analysis of the deposited data

How the results depend on the processing

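The number of probes past the threshold was 1124, and it was 630 with normexp, 113 without a filter on dim probes, 650 over probes well above background on all arrays, 5069 with array weights and 385 with the replicate block, which is the slide block. Leaving out 1 array gave 107 (without knockout replicate 3) to 1716 (without wild-type replicate 2). The count of the 7 genes past it was 1, and it was 0 without the filter, 3 with array weights (Bmp1, Fap and Mrc2; 21.7% of all genes passed there, against 4.8%) and 0 to 1 when 1 array was left out. With the replicate block Fap passed (adjusted p = 0.0490) and Mrc2 did not (0.0750), and no other of the 7 changed its call. Of 126 single values of the 7 genes under the alternatives, 112 kept sign and call, 7 lost the call (Mrc2), 3 gained it and 4 turned sign: Adamts14 to 0.02, 0.29 and 0.06 without knockout replicate 1, wild-type replicate 1 and wild-type replicate 3, and Ctsk to -0.27 without wild-type replicate 1; leaving out single arrays gave -0.59 to 0.29 for Adamts14 and -0.27 to 1.37 for Ctsk. The cause was not tested. The median change of the 7 genes ran from 0.46 (without wild-type replicate 2) to 0.79 (without wild-type replicate 3). Of 337 values of the other named genes, 108 lost their call and none turned sign. In both counts, 1 of the 18 alternatives, the mean over all tested probes of a gene, carried the main adjusted p. Its calls could therefore not change. Scaling moved the centre: the median change of all probes was 0.07, and -0.04 when arrays were scaled to the 75th percentile of probes detected on all arrays, where 608 probes were higher and 563 lower, against 697 and 427. The Bmp1 change stayed between 0.25 and 0.56. Signal over background limits the dimmer Mrc2 and Adamts14 probes, which gave no test.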

Other observations

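Of the 5 tested osteoclast markers, 2 passed, in opposite directions, beside 4.8% of all genes in either direction, while Ctsk did not. Acp5, the tartrate-resistant acid phosphatase of lysosomes, had log2 signals of 3.28, 2.87 and 2.82 on the knockout arrays, against 1.45, 1.19 and 1.22 on the wild-type arrays, a change of 1.70 ± 0.22 (SE, n = 3 per group; limma adjusted p = 0.0134, and 0.0447 with slide as a block). Nfatc1, a transcription factor known to drive Ctsk in osteoclasts, had log2 signals of -3.12, -2.88 and -2.04 on the knockout arrays, against -0.70, -0.64 and -0.57 on the wild-type arrays. Its change was -2.04 ± 0.31 (SE; adjusted p = 0.0209, and 0.0524 with slide as a block), and it was well above background on 2 knockout arrays and 3 wild-type arrays.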
